A study of Rattus norvegicus with 12 samples.

Results

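Lysosomal enzymes and membrane proteins were followed in rat kidney through 39 genes: 12 glycosidases, 5 sulfatases, 7 genes of lipid breakdown and sterol transfer, 10 proteases, 4 membrane proteins and the transcription factor Tfeb. The genes were taken by symbol from a list of lysosomal genes that was drawn up with earlier results of these data in view, among them the difference of Manba between CPB+Nitrite and CPB, which is therefore given here only as a description. All 39 symbols were found, none was repeated, and all 39 passed the filter on low counts, out of 14664 genes tested and 20455 genes with reads.

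RNA-seq was run on kidney tissue in 12 libraries from a rat model of cardiopulmonary bypass (CPB), in which blood is pumped and oxygenated outside the body, a procedure known for acute kidney injury. The 3 groups of 4 libraries were sham, CPB, and CPB with nitrite (CPB+Nitrite), the last asking whether nitrite alters the response to bypass. Both CPB groups share the bypass. Strain, age, sex, nitrite dose and sampling time are not given in the labels used here, nor is it said that the replicates are separate animals, so p-values measure the spread between these libraries, which may be technical.

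Lysosomes are acidic compartments that break down proteins, glycans and lipids brought in by endocytosis or autophagy. Their hydrolases are made in the secretory pathway and most are carried to the lysosome on a mannose 6-phosphate tag, while membrane proteins such as LAMP1 and LAMP2 line the compartment and the channel protein encoded by Mcoln1 releases calcium from it. TFEB and its relatives enter the nucleus when the kinase mTOR is less active and raise lysosomal genes through a palindromic promoter element, TCACGTGA, which contains the shorter E-box CACGTG. In kidney, proximal tubule cells take up filtered protein and have abundant lysosomes.

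Promoter sequence from RefSeq, build GRCr8, 250 bases before to 50 bases after each gene's start, was matched by symbol for 32 of the 39 genes. Both motifs are palindromes, so each strand gives the same match. CACGTG was in 7 of the 32 promoters (21.9%) and in 6.42% of 33469 RefSeq promoters of the same length, and TCACGTGA was in 3 of 32 (9.38%) and in 0.777%. The promoters of Ctsd, Lamp1 and Mcoln1 also held other CACGTG sites that are not shown, among them a further TCACGTGA in Lamp1. The windows below are shown because they carry those motifs, 1 window of 48 bases for each of the 7 genes, 5′ to 3′ on the gene's strand, with the motif in capitals.
Ctsd, chr1:206968805-206968852, minus strand: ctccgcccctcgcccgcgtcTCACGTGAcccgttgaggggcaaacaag
Lamp1, chr16:83075075-83075122, minus strand: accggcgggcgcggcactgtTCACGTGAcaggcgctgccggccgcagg
Mcoln1, chr12:6358241-6358288, plus strand: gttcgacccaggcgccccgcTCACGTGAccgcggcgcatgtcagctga
Glb1, chr8:122963597-122963644, plus strand: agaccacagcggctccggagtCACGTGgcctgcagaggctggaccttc
Gaa, chr10:105028267-105028314, plus strand: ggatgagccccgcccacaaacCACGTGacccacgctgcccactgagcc
Idua, chr14:1190905-1190952, minus strand: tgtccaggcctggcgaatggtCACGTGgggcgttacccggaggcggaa
Sgsh, chr10:105112020-105112067, minus strand: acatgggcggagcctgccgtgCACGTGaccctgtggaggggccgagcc
The 3 genes with the full palindrome did different things in CPB against sham, as described below: Ctsd was higher, Mcoln1 was lower and Lamp1 was not called. The 4 genes with the E-box but not the full palindrome were all lower, where 21.5% of all genes tested were called lower. All 7 promoters also held TCACGTG on at least 1 strand, as did 3.2% of the RefSeq promoters. By direction, the E-box was in 1 of 7 matched promoters of genes called higher, 5 of 10 called lower and 1 of 15 not called. The calls of genes with an E-box were not counted over all genes, so nothing is read from these counts. A match describes the letters in the window and is not evidence of binding.

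Libraries held 16837055 to 25776044 estimated reads assigned to genes, and levels are given as CPM, the count relative to the library total after scaling by TMM factors. CPM is not divided by transcript length, so levels are compared between libraries and never between genes. Library CPB+Nitrite 2 stood apart from the other libraries: its log2 CPM correlated with those of its own group at 0.896 to 0.924. The other 3 CPB+Nitrite libraries correlated with each other at 0.943 to 0.959. Correlations within sham ran from 0.961 to 0.979 and within CPB from 0.968 to 0.982, so CPB+Nitrite was more spread also without library 2. Its summed endothelial marker level was 2726 CPM, against 318 to 578 CPM in the other 3 CPB+Nitrite libraries, and its loop of Henle and distal tubule markers summed to 1086 CPM, against 6125 to 11440 CPM. In the CPB+Nitrite comparisons, the medians and calls of the 39 genes are also given without it, as are the medians of other lists in CPB+Nitrite against CPB. Kidney markers were present: all 18 proximal tubule markers passed the filter and summed to 7709 CPM or more in every library.

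After bypass the lysosomal genes changed in both directions, as did all genes tested. The proteases Ctsl, Lgmn, Ctsz, Ctsb and Ctsd rose, as did the glycosidase Manba and the membrane proteins Scarb2 and Lamp2. Most glycosidases, 3 of 5 sulfatases, the sphingolipid enzymes Smpd1 and Asah1, the thioesterase Ppt1 and the channel Mcoln1 fell. In all, 8 of the 39 genes, Manba included, were called higher and 14 lower in CPB against sham by edgeR at an adjusted p under 0.05. Over all genes tested, 21.7% were called higher and 21.5% lower, so bypass moved a large part of the transcriptome. The count of 8 higher is near that share, and nothing is read from it about these genes. The median log2 change was -0.16 over the 39 genes and -0.05 over all genes tested. Of the 39 changes 9 were positive, where 47.4% were over all genes tested. The number called higher was 5 without CPB 4, sham 1 or sham 2, and the number of all genes called higher fell in the same fits from 3184 to 2525 of 14892, 2567 of 14813 and 2369 of 14814.

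**Figure D1:**
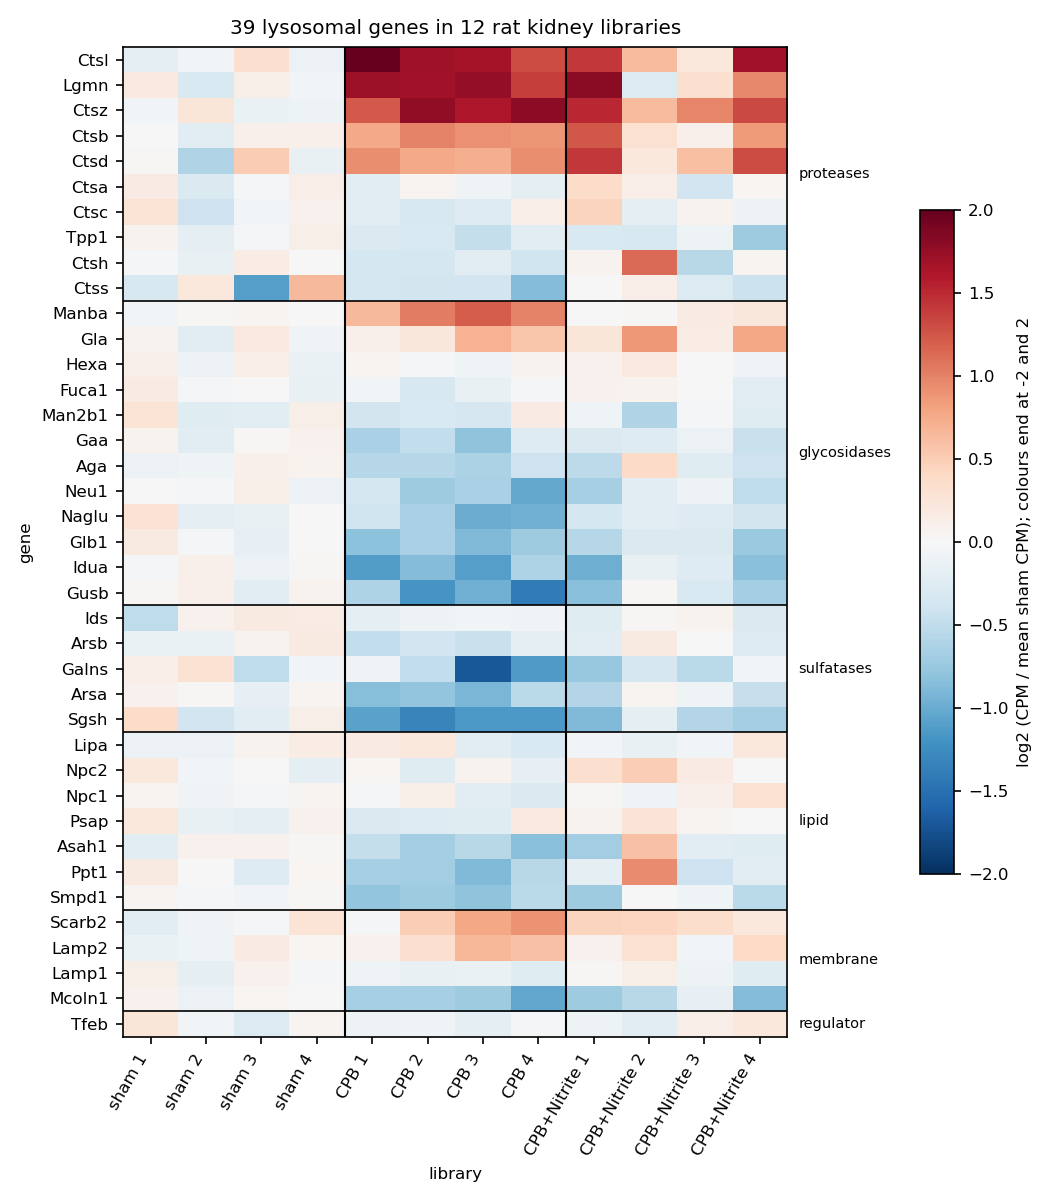
Level of each of the 39 genes in each of the 12 libraries, as log2 of the CPM over the gene's mean CPM in sham; rows are genes grouped by role, columns are libraries, and vertical lines separate the groups. In the protease block the rows Ctsl to Ctsd are red in all 4 CPB libraries, most glycosidase and sulfatase rows are blue there, and the CPB+Nitrite columns differ from each other.

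Ctsl encodes cathepsin L, a cysteine endopeptidase that cleaves a broad range of proteins in the lysosome. Its level was 723, 789, 1025 and 756 CPM in the sham libraries, 3417, 2675, 2612 and 2033 CPM in CPB, and 2196, 1282, 948 and 2628 CPM in CPB+Nitrite. Every CPB library lay above every sham library, and the CPB+Nitrite libraries spread from within the sham range up to the CPB levels. Ctsl rose 3.26-fold in CPB against sham (log2 change 1.71, SE 0.30, adjusted p = 0.00169).

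Lgmn encodes legumain, a protease that cuts after asparagine and also processes other cathepsins to their mature form. It measured 424, 302, 401 and 360 CPM in sham, 1222, 1185, 1261 and 974 CPM in CPB, and 1299, 309, 462 and 725 CPM in CPB+Nitrite. CPB and sham did not overlap, and CPB+Nitrite ranged from a sham level in library 2 to above every CPB library in library 1. The rise in CPB was 3.12-fold (log2 change 1.64, SE 0.35, adjusted p = 0.00379).

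Ctsz, the carboxypeptidase cathepsin Z, was at 12.3, 15.0, 11.7 and 11.9 CPM in sham, 29.8, 43.6, 39.1 and 43.8 CPM in CPB, and 36.3, 19.7, 24.9 and 31.7 CPM in CPB+Nitrite. All 8 libraries with bypass lay above all 4 sham libraries. The change in CPB was 3.07-fold (log2 change 1.62, SE 0.20, adjusted p = 0.000968), among the smallest adjusted p-values of the 39 genes.

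Ctsd encodes cathepsin D, the main aspartic protease of the lysosome, and its promoter window above carries the full palindrome. Sham libraries had 921, 596, 1292 and 821 CPM, CPB libraries 1736, 1532, 1501 and 1729 CPM, and CPB+Nitrite libraries 2410, 1052, 1378 and 2254 CPM. The CPB libraries were all above sham, and CPB+Nitrite libraries 1 and 4 were higher still. Ctsd rose 1.79-fold in CPB (log2 change 0.84, SE 0.28, adjusted p = 0.0294). The call was lost when any of 5 libraries was left out, with an adjusted p of up to 0.0862, without sham 2. Ctsb, cathepsin B, rose from 449 ± 46.4 CPM in sham to 830 ± 54.5 CPM in CPB (SD, n = 4; log2 change 0.89, adjusted p = 0.00804).

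The other 5 proteases, Ctsa, Ctsc, Ctsh, Ctss and Tpp1, were not called and had log2 changes of -0.10 to -0.47. Ctsa encodes a carboxypeptidase that also protects beta-galactosidase and the sialidase Neu1, and Ctsc a dipeptidyl peptidase that activates granule proteases of immune cells. For Tpp1, a tripeptidyl peptidase, and for Ctsh, an aminopeptidase, all CPB libraries lay below all sham libraries without passing the test (adjusted p = 0.0833 and 0.344). Across the 39 genes 6 had every CPB library above every sham library and 16 had every one below, where 23.5% and 24.8% of all genes tested did so.

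The summed level of the 10 proteases was 3172 to 4496 CPM in sham and 6682 to 8213 CPM in CPB. Ctsl, Ctsd, Ctsb and Lgmn, all called higher, made up 63.9 to 71.1% of it in sham and 83.2 to 86.9% in CPB. These genes were called higher in the same libraries, so a larger share in CPB follows from naming them, and nothing is read from it. The shares are of CPM, which is not divided by transcript length. In tissue RNA, fewer cells of a type and less RNA per cell cannot be told apart, and a rise can likewise come from more cells.

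Macrophages are rich in cathepsins. Of 18 macrophage markers 16 passed the filter, 2 rose in CPB (Cd14 and Itgam) and 4 fell (Csf1r, Mrc1, Cx3cr1 and Lyz2), and their summed level was 176 to 355 CPM in sham, 184 to 249 CPM in CPB and 266 to 352 CPM in CPB+Nitrite. The defining markers Adgre1 and Cd68 were low in each group, at means of 8.69, 4.86 and 5.19 CPM and of 1.92, 3.24 and 4.22 CPM in sham, CPB and CPB+Nitrite, and Cd163 and Ms4a7 did not pass the filter. The 10 neutrophil markers tested summed to 8.56 to 16.5 CPM in sham and 19.1 to 26.1 CPM in CPB, with 4 higher and 2 lower. The part of these cells in the protease levels was not tested.

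Manba encodes beta-mannosidase, which removes the last mannose in the breakdown of N-linked glycans, and it was the one glycosidase called higher. The gene lies on chromosome 2 at 223910432 to 224002983, plus strand, in build mRatBN7.2. It measured 68.3, 72.3, 73.6 and 70.9 CPM in sham, 112, 145, 166 and 142 CPM in CPB, and 71.4, 72.3, 80.1 and 83.5 CPM in CPB+Nitrite. The CPB libraries stood apart from both other groups, and CPB+Nitrite libraries 1 and 2 lay inside the sham range with libraries 3 and 4 just above it. Manba rose 1.98-fold in CPB against sham (log2 change 0.98, SE 0.13, adjusted p = 0.000968). The CPB libraries are also those of the difference that was in view, so this p-value is not independent of that choice.

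Of the 12 glycosidases 7 fell in CPB: Glb1, Gusb, Idua, Naglu, Neu1, Gaa and Aga. Their median log2 change, all 12 included, was -0.54. Glb1 encodes beta-galactosidase, which acts on gangliosides and keratan sulfate. Its values were 125, 108, 98.4 and 111 CPM in sham, 62.7, 70.5, 59.7 and 67.7 CPM in CPB, and 74.2, 90.9, 90.9 and 66.2 CPM in CPB+Nitrite. All CPB and all CPB+Nitrite libraries lay below all sham libraries. The fall in CPB was to 0.589 of the sham level (log2 change -0.76, SE 0.14, adjusted p = 0.00186).

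Gusb, beta-glucuronidase, and Idua, alpha-iduronidase, remove terminal uronic acids from glycosaminoglycans. Gusb measured 16.9, 17.9, 14.3 and 17.4 CPM in sham, 10.8, 7.34, 8.50 and 6.30 CPM in CPB, and 9.26, 17.0, 13.4 and 10.3 CPM in CPB+Nitrite. Idua measured 31.3, 33.9, 29.1 and 32.3 CPM in sham, 14.6, 17.3, 14.8 and 20.6 CPM in CPB, and 16.1, 28.4, 26.5 and 17.7 CPM in CPB+Nitrite. Both were lower in every CPB library than in any sham library, and in CPB+Nitrite libraries 2 and 3 were above libraries 1 and 4. The log2 changes in CPB were -1.01 for Gusb (SE 0.22, adjusted p = 0.00467) and -0.91 for Idua (SE 0.20, adjusted p = 0.00411).

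Naglu, which cuts N-acetylglucosamine from heparan sulfate, changed by -0.73 on the log2 scale, and the sialidase Neu1 by -0.66. Gaa, which breaks down glycogen, and Aga, which splits the sugar from asparagine and is only grouped here with the glycosidases, each changed by -0.54. Aga lost its call when any of 6 libraries was left out, with an adjusted p of up to 0.0745 without CPB 3. Gla, the alpha-galactosidase that is lost in Fabry disease, had a log2 change of 0.41 (adjusted p = 0.0969) and was not called. Hexa, Fuca1 and Man2b1 were between 0.00 and -0.19 and were not called; the interval for Hexa, a subunit of beta-hexosaminidase, ran from -0.27 to 0.27 (95%, log2 scale, per gene and not adjusted for the number of genes).

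All 5 sulfatases had negative changes in CPB, and 3 fell. Sgsh, which removes N-linked sulfate from heparan sulfate, was at 9.57, 5.71, 6.34 and 8.03 CPM in sham, 3.52, 2.97, 3.34 and 3.35 CPM in CPB, and 4.02, 6.49, 4.95 and 4.62 CPM in CPB+Nitrite. CPB lay below sham and below CPB+Nitrite with no overlap. The log2 change in CPB was -1.17 (SE 0.23, adjusted p = 0.00266), the largest fall among the 39 genes. Arsa, the sulfatide sulfatase, was at 72.0, 68.9, 60.5 and 70.9 CPM in sham, 37.9, 39.5, 36.3 and 46.8 CPM in CPB, and 45.3, 70.5, 64.4 and 49.4 CPM in CPB+Nitrite. In CPB+Nitrite, libraries 2 and 3 were at sham levels and library 1 within the CPB range. Arsa had a log2 change of -0.76 in CPB (SE 0.16, adjusted p = 0.00325).

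Arsb, which acts on dermatan and chondroitin sulfate, had a log2 change of -0.37 (adjusted p = 0.0455), a call that was lost under 13 of 21 alternative settings. Galns, at 2.21 ± 0.503 CPM in sham and 1.34 ± 0.624 CPM in CPB (SD, n = 4), was the least precise gene, with an interval for its log2 change of -1.52 to 0.10 (95%). Ids, which removes sulfate from iduronic acid, had a log2 change of -0.11 and was not called.

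Among the lipid genes Smpd1, Asah1 and Ppt1 fell and 4 were not called. Smpd1, acid sphingomyelinase, went from 97.3 ± 3.58 CPM in sham to 59.6 ± 5.27 CPM in CPB (SD, n = 4; log2 change -0.71, adjusted p = 0.00478). Asah1, acid ceramidase, had a log2 change of -0.63 (adjusted p = 0.039). Ppt1 removes palmitate from proteins and measured 46.9, 41.9, 34.8 and 42.4 CPM in sham, 26.1, 25.6, 22.6 and 28.3 CPM in CPB, and 36.5, 79.6, 31.3 and 35.8 CPM in CPB+Nitrite. CPB lay below both other groups, and CPB+Nitrite 2 was far above the rest. Ppt1 had a log2 change of -0.69 in CPB (SE 0.26, adjusted p = 0.0436), and without CPB+Nitrite 2, which enters the shared estimate of spread, the same change had an adjusted p of 0.00134. The calls of Asah1 and of Ppt1 were each lost when any of 7 libraries was left out, with adjusted p of up to 0.0991 and 0.105.

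Lipa, which splits cholesteryl esters, Npc1 and Npc2, which pass cholesterol out of the lysosome, and Psap, the precursor of the saposins, had log2 changes between -0.14 and -0.02 and were not called.

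The 4 membrane proteins split. Mcoln1 measured 86.0, 74.9, 83.3 and 81.1 CPM in sham, 51.6, 51.3, 49.6 and 39.6 CPM in CPB, and 49.5, 55.3, 72.7 and 44.6 CPM in CPB+Nitrite. All 8 libraries with bypass lay below sham. The log2 change in CPB was -0.76 (SE 0.16, adjusted p = 0.00338). Scarb2, the receptor that carries glucocerebrosidase to the lysosome, had a log2 change of 0.57 (adjusted p = 0.0255) and Lamp2 one of 0.43 (adjusted p = 0.0446), each with overlapping groups. Both calls were lost when libraries were scaled by their totals alone (log2 changes 0.37 and 0.23, adjusted p = 0.102 and 0.215), a scaling that moved the median of all genes from -0.05 to -0.24 and the split of all calls from 3184 higher and 3148 lower to 2281 and 4269. They were also lost without CPB 3 and without any of several other single libraries.

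Lamp1, the most widely used lysosomal marker, measured 1279, 1044, 1252 and 1143 CPM in sham, 1116, 1069, 1075 and 997 CPM in CPB, and 1199, 1275, 1098 and 997 CPM in CPB+Nitrite. The 3 groups overlapped. The log2 change in CPB was -0.15 (SE 0.14, adjusted p = 0.395), with an interval of -0.47 to 0.17 (95%).

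Tfeb, the regulator, measured 50.5, 41.2, 35.3 and 44.3 CPM in sham, 39.8, 40.3, 37.4 and 41.6 CPM in CPB, and 39.8, 37.1, 47.1 and 49.8 CPM in CPB+Nitrite. The CPB libraries lay inside the sham range. Its log2 change in CPB was -0.11 (SE 0.14, adjusted p = 0.559), with an interval of -0.43 to 0.21 (95%). The level of its mRNA says nothing of where the protein is, since TFEB is controlled by its place in the cell.

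**Figure D2:**
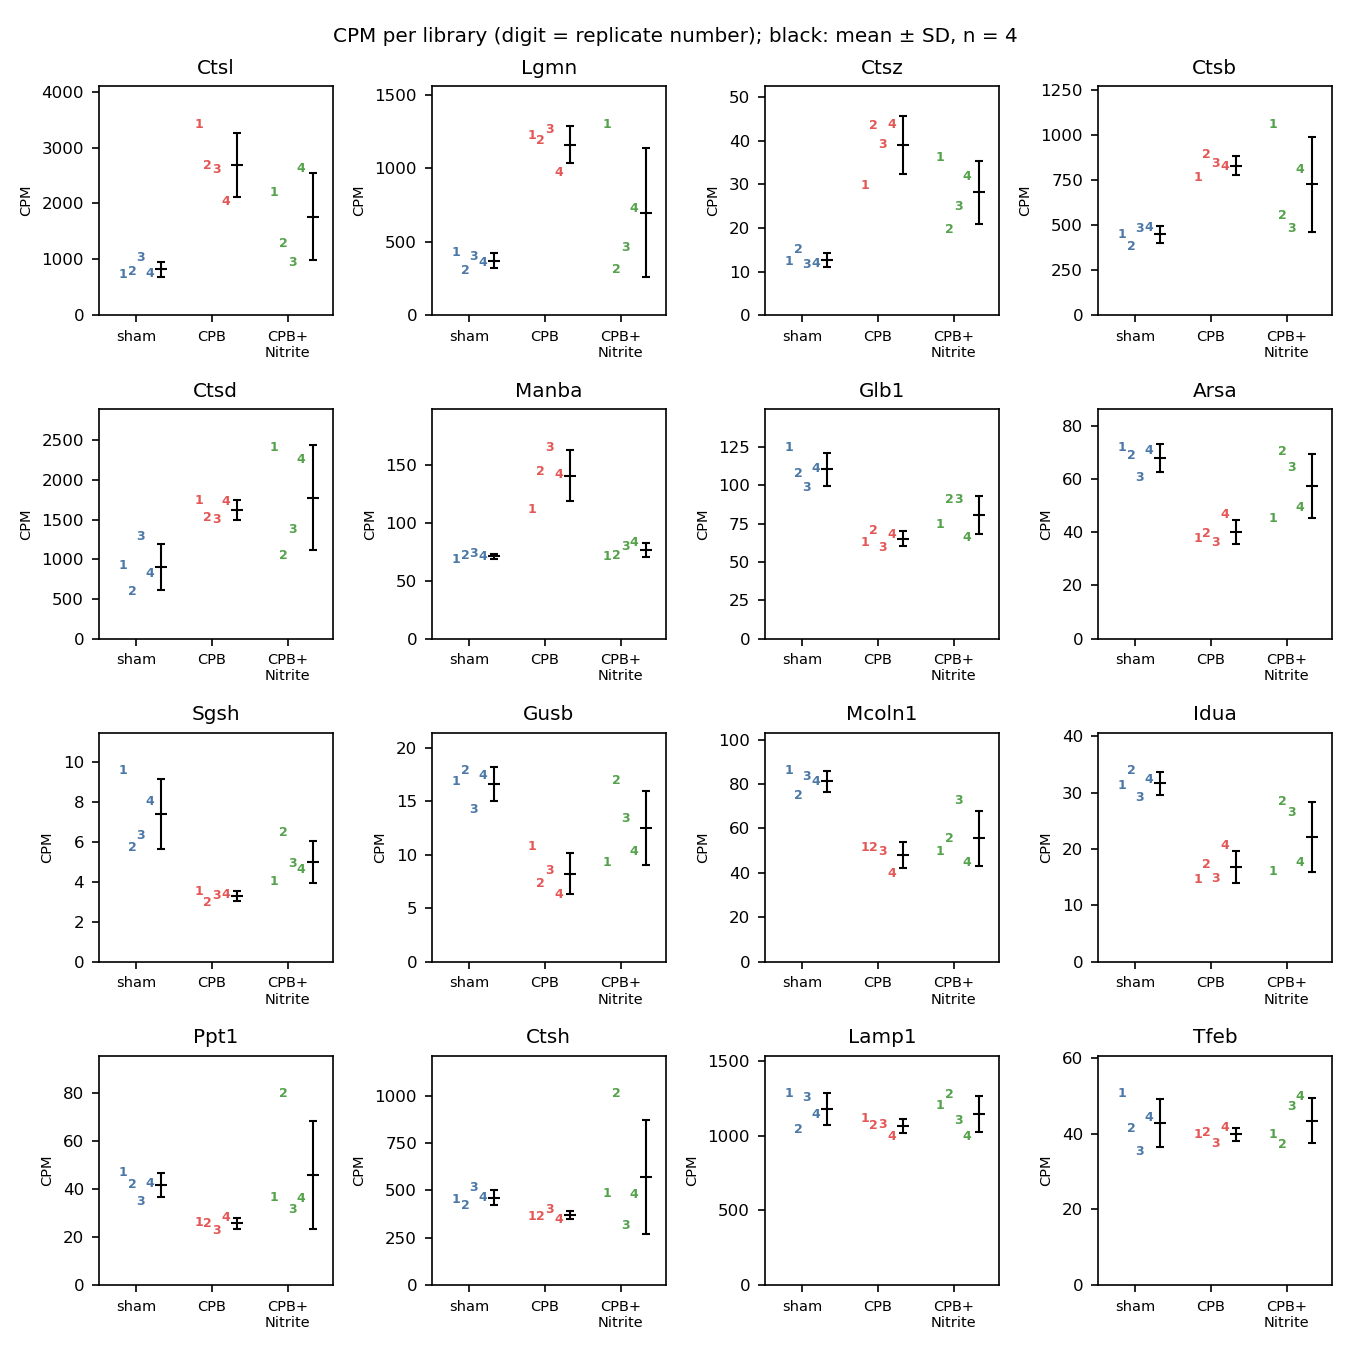
CPM of 16 of the genes in each library, with the digit giving the replicate number and colours the 3 groups (sham blue, CPB red, CPB+Nitrite green); black bars are the mean ± SD of 4 libraries, and each vertical axis starts at 0. Manba stands apart in CPB alone, while for Ctsl, Lgmn, Ctsb and Ctsd the CPB+Nitrite libraries 1 and 4 lie above libraries 2 and 3.

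Genes that share the lysosome with these 39 were taken from lists of other lysosomal genes. Their counts stand beside the 21.7% of all genes tested that were called higher and the 21.5% called lower in CPB against sham. A count such as 6 of 26 or 4 of 19 in one direction is near those shares, and nothing is read from it about a list. Of 32 other lysosomal hydrolases tested, 1 rose and 9 fell in CPB, with a median log2 change of -0.41. The one that rose was Pla2g15, a lysosomal phospholipase, at 32.7 ± 10.7 CPM in sham and 93.0 ± 31.3 CPM in CPB (SD, n = 4; log2 change 1.51, adjusted p = 0.0048). The falls of smallest p were in Acp2, lysosomal acid phosphatase (log2 change -1.13), Galc, galactosylceramidase (-0.92), and Hgsnat, an acetyltransferase of heparan sulfate breakdown (-0.77). Of 26 other lysosomal membrane proteins tested, 3 rose and 8 fell, with a median of -0.06. Slc29a3, a nucleoside transporter, fell most clearly (-1.72), beside Entpd4 (-0.86) and the peptide transporter Abcb9 (-1.30), while Pip4p1 (0.51), Slc15a4 (0.53) and the channel Tpcn2 (1.01) rose.

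The vacuolar proton pump acidifies the lysosome, and of its 14 genes tested 1 rose and 6 fell (median -0.18). Atp6v1b2, a subunit of the part that splits ATP, was at 233, 236, 341 and 274 CPM in sham, 923, 863, 906 and 685 CPM in CPB, and 801, 191, 364 and 531 CPM in CPB+Nitrite. All CPB libraries lay above all sham libraries, and the CPB+Nitrite libraries spread across both ranges. It rose in CPB (log2 change 1.64, adjusted p = 0.00337) while Atp6v1h (-0.80), Atp6v1a (-0.76) and Atp6v0a1 (-0.69) fell. Of 15 genes that sort hydrolases to lysosomes, 1 rose and 3 fell (median -0.20): Gga3 rose (0.57) and Gga2 (-1.37), Sort1 (-1.07) and Nagpa (-0.61), which uncovers the mannose 6-phosphate tag, fell.

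Of 19 genes of the TFEB family and lysosomal nutrient sensing, 4 rose and 3 fell, with a median of -0.20. Among those that rose were Fnip2 (log2 change 1.25), Rragc (0.37) and the TFEB relative Tfe3 (0.37), while Mtor (-0.52), Flcn (-0.39) and Lamtor5 (-0.91) fell. Of 26 autophagy genes 6 rose and 1 fell (median 0.17). Sqstm1, the cargo receptor p62, was at 475 ± 76.6 CPM in sham and 1282 ± 293 CPM in CPB (SD, n = 4; log2 change 1.43, adjusted p = 0.00197), and Gabarapl1 (1.13) and Atg16l1 (0.60) also rose, while Atg7 fell (-0.57).

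Of 6 cystatins and serpins, listed here as protease inhibitors whatever the protease they act on, 2 rose: Cst7 (log2 change 2.09) and Serpinb9 (1.31). Of 12 genes of the response to lysosome membrane damage, 4 rose and 1 fell, with a median of 0.33. Lgals9, a galectin that binds glycans exposed on broken lysosomes, rose from 9.74 ± 3.81 CPM in sham to 112 ± 36.3 CPM in CPB (SD, n = 4; log2 change 3.52, adjusted p = 0.000968). Pi4k2a, which makes the lipid signal for repair (0.93), and the ESCRT gene Chmp4b (0.64) rose, and Tecpr1 fell (-0.64). Proximal tubule markers moved beside these genes: 9 of 18 fell and the median log2 change was -0.63, with a summed level of 12280 to 14190 CPM in sham and 8356 to 10010 CPM in CPB. Loop of Henle and distal tubule markers had a median of -0.97 and those of fibroblasts, pericytes and smooth muscle one of -1.24. The part of these shifts in the lower hydrolase levels was not tested.

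**Figure D3:**
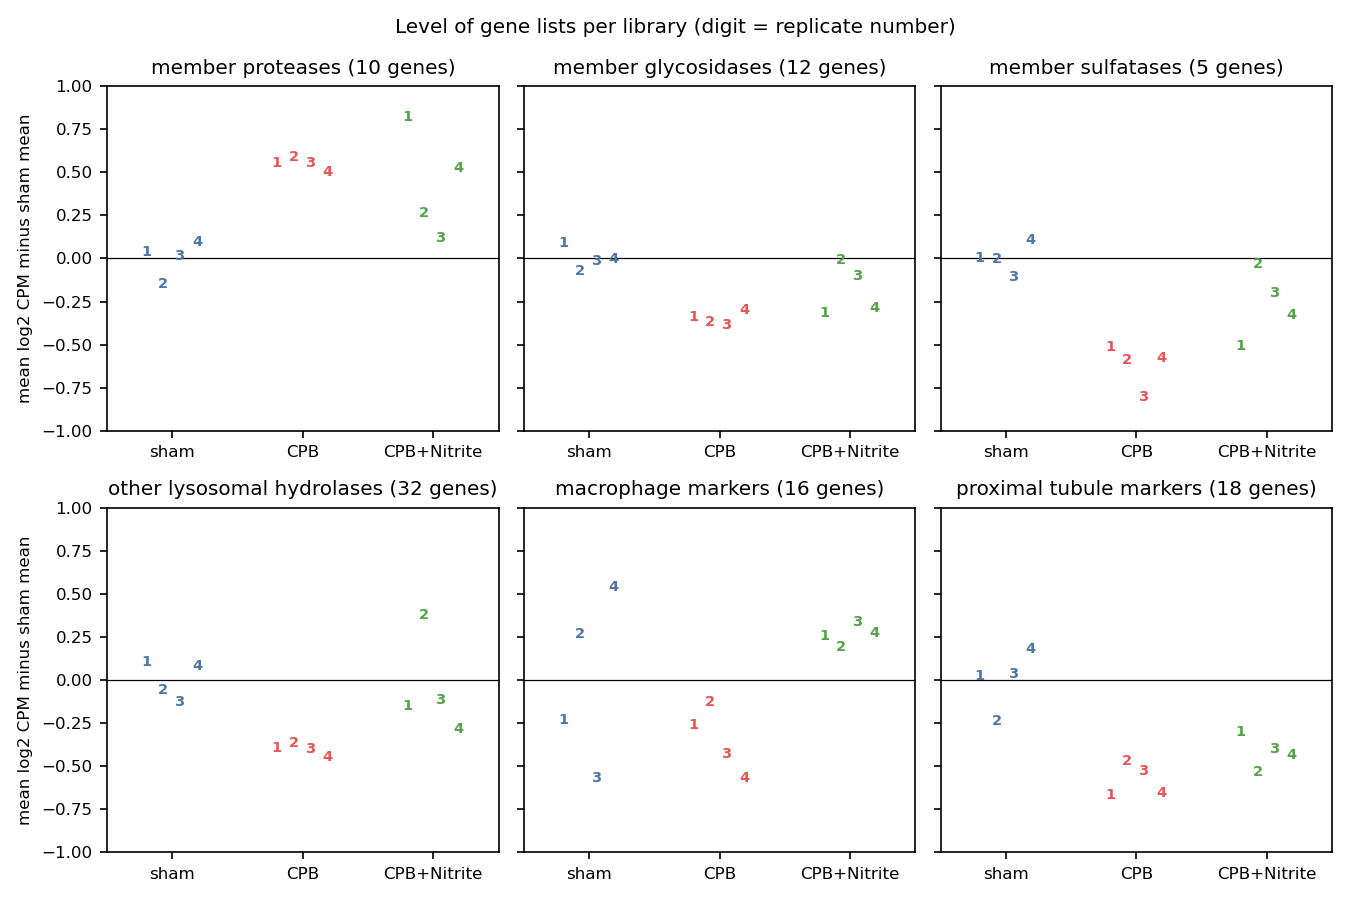
Mean log2 CPM of 6 gene lists in each library, relative to the mean of sham, with the digit giving the replicate number and colours the groups (sham blue, CPB red, CPB+Nitrite green). In all 4 CPB libraries the mean of the 10 proteases is higher than in any sham library. The means of the 12 glycosidases, 5 sulfatases, 32 other lysosomal hydrolases and 18 proximal tubule markers are lower there than in any sham library. The mean of the 16 macrophage markers overlaps between sham and CPB.

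With nitrite given beside bypass, the 4 libraries did not lie together for most of the genes that had changed with bypass. Of the 6 genes that rose in CPB with no overlap, CPB+Nitrite 1 had 5 within or above the CPB range, all but Manba, and CPB+Nitrite 4 had 4, whereas libraries 2 and 3 had none. Of the 14 genes that fell, library 1 had 10 within the CPB range and library 4 had 7, and libraries 2 and 3 again had none. Library 2 had 8 of the 14, and library 3 had 5, within or above the sham range. Manba, whose difference from CPB was in view, was near sham in all 4 libraries. These positions were not counted over all genes, so nothing is read from them about lysosomal genes in particular.

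In CPB+Nitrite against CPB, edgeR called 0 of the 39 genes at an adjusted p under 0.05, as it called 0% of all genes tested. Manba is left out of the counts that follow, since its difference was in view. At an unadjusted p under 0.05 there were 12 of the other 38 and 4315 of all genes. DESeq2 called 2 of the 38, Arsa and Ppt1, both higher, among 2235 of all genes, and limma voom with sample weights called 0 of the 38 and 1 of all genes. The median log2 difference was 0.21 over the 39 genes, Manba included, and 0.05 over all genes. Of the other 38 differences 30 were positive, as were 54.1% of those over all genes tested. Since both comparisons use the CPB libraries, these values cannot be set against the changes in CPB as separate evidence.

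Manba, given as a description, differed by -0.88 on the log2 scale (SE 0.13), and every CPB+Nitrite library, at 71.4 to 83.5 CPM, was below every CPB library, at 112 CPM or more. None of the other 38 genes had every CPB+Nitrite library below CPB, and Ppt1, Sgsh and Naglu had every one above. Over all genes tested, 6.27% lay below and 6.44% above. Arsa was higher by 0.52 (SE 0.16, adjusted p = 0.0706, 95% interval 0.16 to 0.88), and Gusb by 0.60 (SE 0.22, adjusted p = 0.107, 95% interval 0.10 to 1.10), values that did not pass the test. Ppt1 differed by 0.84 (SE 0.26, adjusted p = 0.0729), and by 0.43 (adjusted p = 0.141) without CPB+Nitrite 2.

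Of the 5 proteases that rose with bypass, Ctsz, Lgmn, Ctsl and Ctsb had lower means with nitrite and Ctsd a higher one, and none of these differences passed the test. Ctsz differed by -0.47 (SE 0.20, adjusted p = 0.136, 95% interval -0.92 to -0.02) and Lgmn by -0.73 (SE 0.34, adjusted p = 0.172, 95% interval -1.50 to 0.04). Ctsl differed by -0.61 (adjusted p = 0.183), and Ctsd, whose mean was 1773 ± 662 CPM in CPB+Nitrite and 1624 ± 125 CPM in CPB (SD, n = 4), by 0.13 (adjusted p = 0.778). The sign for Ctsd turned to -0.09 without CPB+Nitrite 1 and to -0.01 without CPB+Nitrite 4. Lamp1 differed by 0.10 and Tfeb by 0.13, with 95% intervals of -0.22 to 0.42 and -0.19 to 0.45.

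Leaving out a single library changed this count. Without CPB+Nitrite 1, edgeR called 6 of the 38 genes other than Manba, while 2865 of 14859 genes tested (19.3%) were called: Arsa, Asah1, Smpd1 and Ppt1 were higher than in CPB, and Ctsz and Lgmn lower. Lgmn then differed by -1.26 (SE 0.26, adjusted p = 0.013) and Arsa by 0.58 (adjusted p = 0.0264). Without CPB+Nitrite 2 no call arose and the median over the 39 genes stayed at 0.21.

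None of the markers of other cell types passed the test in this comparison. The median log2 difference of the 16 macrophage markers was 0.44, that of the 14 endothelial markers 1.51, and that of the 12 markers of fibroblasts, pericytes and smooth muscle 1.22. Medians of other marker lists were 3.1 for urothelium, 1.93 for adipocytes, 0.73 for podocytes, 0.53 for collecting duct and 0.44 for neutrophils. Proximal tubule had 0.29, loop of Henle and distal tubule 0.21, red blood cells 0.16, and T, B and natural killer cells -0.72. The macrophage markers summed to 184 to 249 CPM in CPB and 266 to 352 CPM in CPB+Nitrite, and the part of these cells in the differences of the 39 genes was not tested. The 32 other lysosomal hydrolases had a median difference of 0.36 and the 14 proton pump genes one of 0.20, while autophagy genes had -0.16. Without CPB+Nitrite 2, a setting added for these lists after the data were seen, the medians were 0.64 for endothelial markers, 0.68 for those of fibroblasts, pericytes and smooth muscle, and 0.55 for macrophage markers. The other hydrolases then had a median of 0.21, the proton pump genes 0.15 and autophagy genes -0.15. Urothelium then had 3.34, adipocytes 1.11, podocytes 0.5, collecting duct 0.57 and neutrophils 0.42. Proximal tubule had 0.25, loop of Henle and distal tubule 0.36, red blood cells -2.47, and T, B and natural killer cells -0.83.

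**Figure D4:**
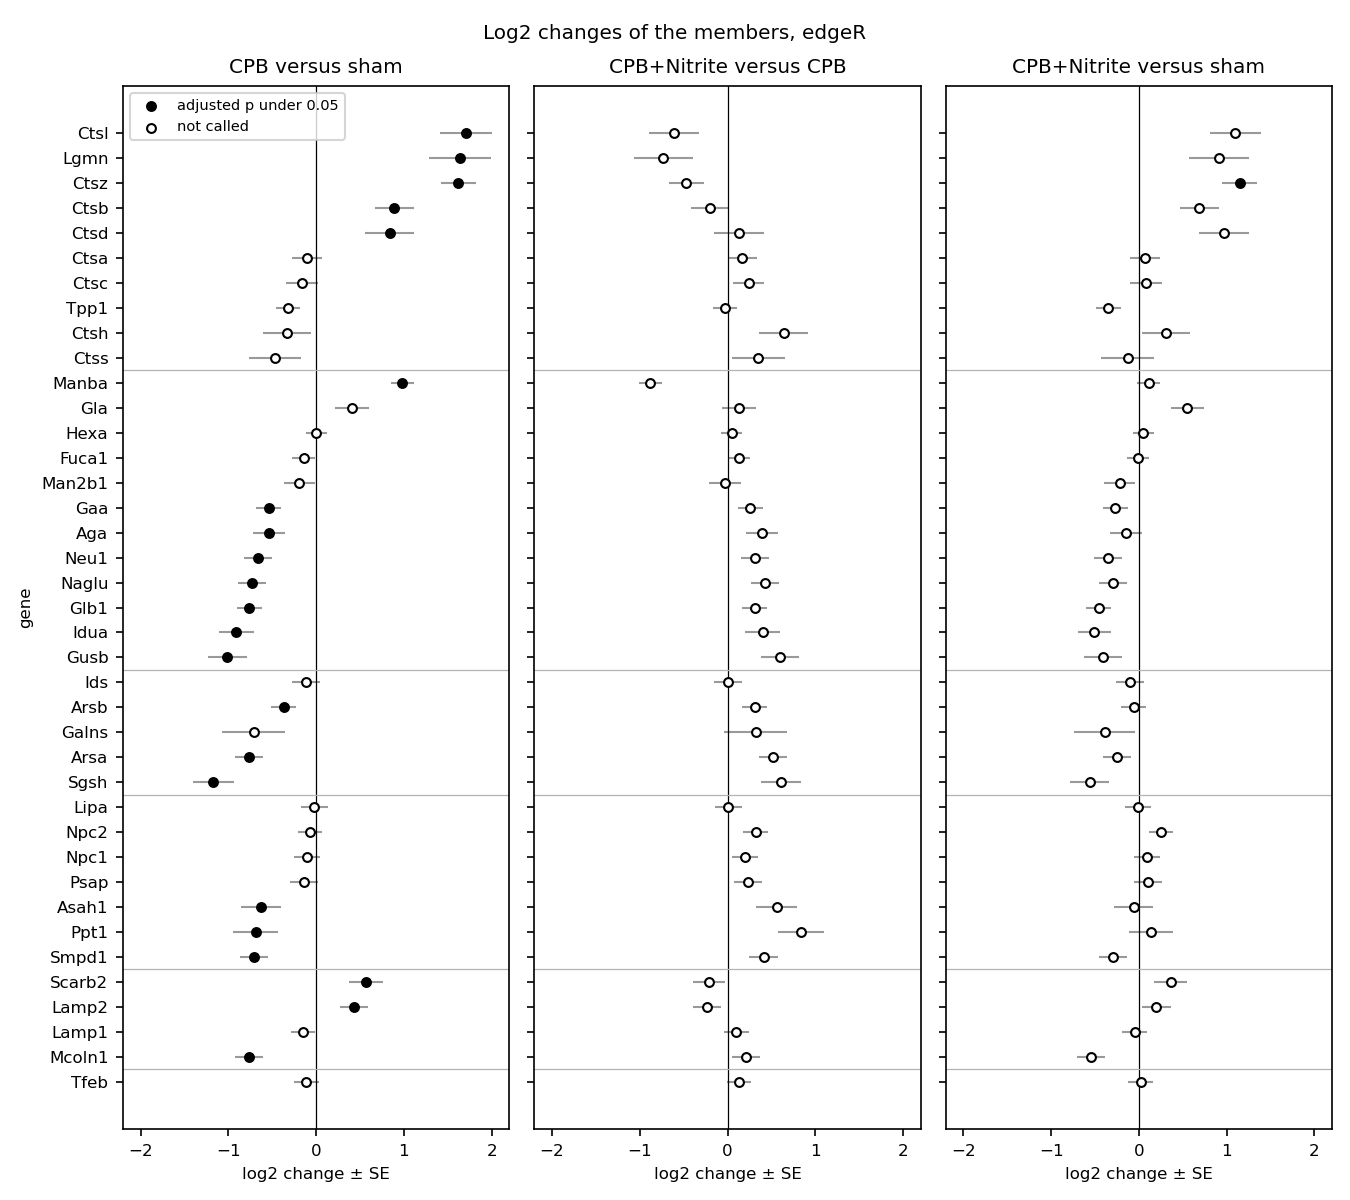
Log2 differences of the 39 genes in the 3 comparisons, from edgeR, with bars of 1 SE on each side; filled points passed an adjusted p of 0.05 and open points did not, and grey lines separate the roles. CPB versus sham has 22 filled points, CPB+Nitrite versus CPB has none and CPB+Nitrite versus sham has 1, Ctsz.

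Against sham, CPB+Nitrite had 1 called gene among the 39. Ctsz was 2.21-fold higher (log2 change 1.15, SE 0.20, adjusted p = 0.0262), while 3.85% of all genes tested were called higher and 0.955% lower. The call was lost without CPB+Nitrite 1, CPB+Nitrite 4, sham 1, sham 2 or sham 4, with adjusted p of 0.0511 to 0.109, in a fit of these 2 groups alone (adjusted p = 0.112), and under 1 other setting of the 21. The 705 calls over all genes moved likewise: they became 3 without sham 1, 0 without sham 2, 1 without sham 4, 0 without CPB+Nitrite 4 and 2976 without CPB+Nitrite 3. Ctsz was also the 1 gene with every CPB+Nitrite library above sham, and Mcoln1, Glb1, Idua and Naglu had every one below, where 5.64% and 5.87% of all genes tested did so.

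The proteases Ctsl (log2 difference 1.10, SE 0.29, adjusted p = 0.0509) and Ctsd (0.97, SE 0.28, adjusted p = 0.0609) did not pass the test, nor did Mcoln1 (-0.55, SE 0.16, adjusted p = 0.0577), Glb1 (-0.46, SE 0.14, adjusted p = 0.0641) and Idua (-0.51, SE 0.19, adjusted p = 0.118). Manba differed from sham by 0.11 (SE 0.13, adjusted p = 0.614), with a 95% interval of -0.18 to 0.40. The median over the 39 genes was -0.01, and 0.04 over all genes. Without CPB+Nitrite 2 these medians were -0.12 and -0.01.

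The calls among the 39 genes moved with the library left out, as did those over all genes. Without CPB+Nitrite 2, the library that stood apart, 1796 of 14778 genes tested were called (12.2%), and Ctsz, Ctsl, Ctsd, Ctsb and Lgmn were called higher than in sham and Glb1 and Idua lower, with Ctsd at 1.15 (SE 0.25, adjusted p = 0.0202). Without CPB+Nitrite 3, where 2976 of 14886 genes were called (20%), Gla was called higher beside Ctsz, Ctsl, Ctsd and Ctsb, and Mcoln1, Glb1 and Tpp1 lower. Tfeb differed by 0.02 and Lamp1 by -0.05, and the sign of each turned under some settings. Of the other lysosomal lists, the membrane damage response had 3 of 12 genes called higher than in sham: Lgals9 (2.05), Chmp4b (0.73) and Lgals3 (1.30). Mitf, a relative of TFEB, was called lower (-0.87, adjusted p = 0.0402 by edgeR), as 1 of 19 genes of its list. The lists of other hydrolases, other membrane proteins, proton pump, sorting, autophagy and protease inhibitors had 0 calls each. Over all genes tested, 3.85% were called higher and 0.955% lower.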

How the data were processed

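RNA was taken from 12 rat kidney samples and libraries were made with a directional kit, per the labels' protocols. The authors deposited estimated counts per gene, and a second table whose values are a scaled signal of the same counts, used here to find the genes by symbol and for 1 alternative scaling. The submitters' processing notes name bcl2fastq 2.19, cutadapt 1.18, Salmon 1.2.1, R 3.5.1 and build mRatBN7.2; their options are not given in the sources used here. Of the non-zero estimated counts 33.1% were not whole (tolerance 1e-06), so reads shared between near-identical genes may be split by estimate.

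Counts were rounded, filtered with edgeR's filterByExpr (minimum count 10; 14664 of 30208 genes kept, with 99.95% of reads), scaled by TMM and fitted with edgeR 4.0.16 (R 4.3.3), quasi-likelihood test, 1 fit of all 12 libraries, two-sided, Benjamini-Hochberg over all genes tested, threshold 0.05. CPM uses the same factors. The procedure was tested on simulated data. Totals of 16837055 to 25776044 estimated counts per library limit the genes of low level. No 2 libraries of a group agreed within counting noise, so none was treated as a repeat deposit of another; this does not show that they are separate animals.

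Alternatives were RLE factors, library totals alone, the factors of the authors' scaled table, no filter, a mean of at least 2 CPM, the replicate number as a block, only the 2 groups compared, DESeq2 1.42.0, limma 3.58.1 voom with sample weights, and leaving out each library; the other lists without CPB+Nitrite 2 were added after seeing the data. The 39 genes, their roles, the other lists and the alternatives were chosen with earlier results of these data known. Values per library go to Manba, Tfeb, Lamp1, Ctsd and the genes of smallest p in each direction (up to 4 in CPB against sham, up to 3 in the other comparisons), with Atp6v1b2 added after its values were seen; of other lists up to 3 genes past the threshold in each direction are named, with Tfe3 added after its value was seen and 1 gene not reported here. Promoter matches use RefSeq's GRCr8 table, whose coordinates are not those of mRatBN7.2.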

Additional observations from a re-analysis of the deposited data

Results flagged for a closer look

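In a group of 4 libraries a value was singled out when its gap to the nearest other library, as a share of the group's range, was above Dixon's 95% critical value. Of 117 groups (39 genes in 3 groups) 5 were, about the share that chance gives, 1 in 20. Library CPB 4 accounts for 4 of them. Psap was highest there at 803 CPM, against 573 to 591 CPM in the other CPB libraries (gap share 0.919), and Man2b1 was highest at 162 CPM, against 113 to 118 CPM (0.895). Ctss was lowest there at 13.6 CPM, against 19.2 to 19.6 CPM (0.935), and Mcoln1 was lowest at 39.6 CPM, against 49.6 to 51.6 CPM (0.834). The other was Ppt1 in CPB+Nitrite 2, at 79.6 CPM against 31.3 to 36.5 CPM (0.892).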

How the results depend on the processing

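All 22 calls in CPB against sham had the same sign under all 21 alternatives (12 leave out 1 library), and 15 were kept under all 21; Aga, Arsb, Asah1, Ctsd, Lamp2, Ppt1 and Scarb2 were lost under at least 1. With library totals alone the median log2 change of the 39 genes was -0.35 in CPB against sham, 0.32 in CPB+Nitrite against CPB and -0.09 in CPB+Nitrite against sham. In CPB+Nitrite against CPB, DESeq2 called 2 higher and 1 lower, the latter Manba, whose difference is a description. In CPB+Nitrite against sham, 1 gene was called higher and 0 lower (705 of all genes); the counts higher were 4 with DESeq2, 5 with voom, 2 with the authors' factors, with RLE factors and with a mean of at least 2 CPM, and 0 with only the 2 groups and with the replicate block, and lower were 2 with DESeq2 and 5 with voom. Over all genes that comparison had 0 to 2976 calls with 1 library left out, 2144 calls with DESeq2, 2870 with voom, 0 with the 2 groups alone and 28 with the replicate block. Leaving out 1 library gave 5 to 8 higher, 10 to 15 lower and medians of -0.27 to -0.11 in CPB against sham; 0 to 4 higher, 0 to 3 lower and 0.18 to 0.23 in CPB+Nitrite against CPB, Manba included; and 0 to 5 higher, 0 to 3 lower and -0.12 to 0.01 in CPB+Nitrite against sham. The sign turned for Ctsd in CPB+Nitrite against CPB (-0.09 without CPB+Nitrite 1, -0.01 without CPB+Nitrite 4, within a range of up to 0.31 over single libraries), for Lamp1 in CPB+Nitrite against sham (0.01 without CPB+Nitrite 4, down to -0.10 without CPB+Nitrite 2), and for Tfeb there (-0.06 with library totals, without CPB+Nitrite 4 and without sham 3, -0.02 without CPB+Nitrite 3, and 0 without the filter; up to 0.11 without sham 1). The causes were not tested. Replicate numbers did not pair the libraries: 3 of 12 same-numbered pairs correlated above 0.1 (range -0.107 to 0.381). No library (0) correlated best with its own number in both other groups at once, though some did in 1 of them. With the replicate block CPB against sham had 8 higher and 13 lower, and Ctsz in CPB+Nitrite against sham was 1.14 (adjusted p = 0.0574 by edgeR).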
